A study of Mus musculus with 4 samples.

Results

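Lyz2, C1qa, C1qb, Csf1r, Fcgr3, Itgb2, Ptprc, Cd68, Adgre1 and Tyrobp are marker genes of macrophages and other leukocytes, and they were followed here through an expression array experiment on gonocytes, the male germ cells of the newborn mouse testis. Every probe set that the array annotation assigns to 1 of these genes alone was taken, which gave 10 genes with 15 probe sets of 45101. The experiment held 2 samples given retinoic acid (RA) at 100 nM and 2 given its vehicle, ethanol; RA is made from vitamin A and binds nuclear receptors. All 4 samples were cells of testes at 2 days post partum, selected on magnetic columns for the surface protein THY1 and cultured for 8 h without serum, growth factors or feeder cells. Each was read on 1 Affymetrix Mouse Genome 430v2.0 array. The titles number the samples 1 and 2 within each treatment, but no source used here gives the meaning of a number. Separate animals or cultures are not named in the labels, so the spread behind each p-value comes from these 4 samples alone and may be technical. T lymphocytes of the mouse also carry THY1.

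Macrophages settle in the fetal testis and persist in its interstitium, where they clear dying cells and lie close to Leydig cells. Their survival depends on CSF1R, the receptor for the cytokines CSF1 and IL34. They bind antibody-coated particles through Fc receptors such as FCGR3 and adhere through the beta 2 integrins, whose common chain is ITGB2. Signals of many such receptors pass through small adaptor proteins that carry an activation motif, among them TYROBP and the Fc receptor gamma chain. Several macrophage genes are known targets of the transcription factor PU.1, which binds purine-rich sites around the bases GAGGAA.

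Start regions from RefSeq (GRCm38.p6, 250 bases before to 50 after the annotated start) were matched for 5 of the 10 genes, Lyz2, C1qb, Fcgr3, Ptprc and Cd68. The regions of Lyz2, Fcgr3 and Cd68 are shown, chosen after the values were seen, because all 3 genes were higher on the arrays numbered 2 while their differences between RA and vehicle were below, above and near 0. They read 5′ to 3′ on the gene's strand, with matches to GAGGAA on either strand in capitals.
Lyz2, chr10:117282223-117282522, minus strand: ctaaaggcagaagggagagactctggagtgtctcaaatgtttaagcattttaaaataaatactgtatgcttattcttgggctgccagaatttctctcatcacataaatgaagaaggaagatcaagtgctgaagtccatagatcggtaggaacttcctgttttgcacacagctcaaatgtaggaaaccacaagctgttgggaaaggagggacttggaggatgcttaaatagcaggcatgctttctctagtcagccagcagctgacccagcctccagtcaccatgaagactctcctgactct
Fcgr3, chr1:171059354-171059653, minus strand: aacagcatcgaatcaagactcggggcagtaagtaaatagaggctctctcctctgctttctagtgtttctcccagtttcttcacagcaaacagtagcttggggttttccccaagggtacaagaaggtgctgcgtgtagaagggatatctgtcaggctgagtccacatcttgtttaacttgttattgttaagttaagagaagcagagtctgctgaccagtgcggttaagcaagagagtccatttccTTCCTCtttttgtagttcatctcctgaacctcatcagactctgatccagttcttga
Cd68, chr11:69666121-69666420, minus strand: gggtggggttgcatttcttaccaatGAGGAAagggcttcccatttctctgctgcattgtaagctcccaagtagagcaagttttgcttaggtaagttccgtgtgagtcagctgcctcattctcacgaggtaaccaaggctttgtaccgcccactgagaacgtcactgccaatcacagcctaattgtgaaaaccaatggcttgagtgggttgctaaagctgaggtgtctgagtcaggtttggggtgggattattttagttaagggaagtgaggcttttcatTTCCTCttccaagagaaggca
The Cd68 region held 2 matches, 1 on each strand, and the Fcgr3 region held 1 on the other strand. The C1qb region and the first of 2 Ptprc regions held 1 each, the second Ptprc region and the Lyz2 region held none, and a second, overlapping Fcgr3 region held the same match as the first. So 4 of the 5 genes had a match in at least 1 region. Of all 32851 regions of this length in the same source, counted by region and not by gene, 28.3% held these letters, and a match describes the letters and not a bound site.

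The deposited values were intensities on a linear scale with equal trimmed means, and the array medians ranged from 26.6 to 29.5. Precision is limited by how few arrays there are. The germ cell genes Ddx4 and Dazl, an RNA helicase and an RNA-binding protein, were bright on all 4 arrays, with 1121 to 1305 for Ddx4 and 1296 to 1606 for Dazl. Thy1 had 141 and 265 on RA replicates 2 and 1, and 168 and 329 on vehicle replicates 2 and 1. It was lower on both arrays numbered 2 (log2 difference −0.92, limma, adjusted p = 0.000112), the opposite direction to the marker genes described next. Stra8, a germ cell gene that RA is known to induce, had 1477 and 783 on RA replicates 2 and 1, and 53.3 and 188 on vehicle replicates 2 and 1. Even this difference did not reach an adjusted p under 0.05 (limma log2 3.35 ± 0.53, SE, adjusted p = 0.397).

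The first comparison set the arrays numbered 2 against those numbered 1 within each treatment. The marker genes were brighter on the arrays numbered 2: over the 10 genes, with the brightest probe set standing for each, the median log2 difference was 0.79 among RA arrays and 0.94 among vehicle arrays. Over all 13018 genes above the filter the medians were −0.04 among RA arrays and −0.06 among vehicle arrays. Differences were taken on log2(intensity + 5), which understates those of dim genes, and within a treatment 1 array stands against 1, so these values carry no test. The filter, a mean intensity at or above the 40th percentile of all probe sets (16.0), left 13 of the 15 probe sets and 9 of the 10 genes, all but C1qa. In limma with a term for treatment, 8 of these 9 genes were higher on the arrays numbered 2 at an adjusted p under 0.05 and 0 were lower, against 4.82% and 6.91% of all genes above the filter. C1qb was the one that did not pass. Of the 13 probe sets 9 were called higher and 0 lower, against 5.85% and 5.64% of all probe sets above the filter. With 2 arrays of each number, an exact permutation test (two-sided) on any 1 gene could give no p below 0.333. The smaller limma values here rest on a spread pooled over probe sets. In bulk RNA, more cells of a type and more RNA per cell cannot be told apart.

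Among the receptors, Csf1r had intensities of 174 and 87.2 on RA replicates 2 and 1, and of 218 and 92.7 on vehicle replicates 2 and 1. Both arrays numbered 2 lay above both numbered 1, a difference of 2.11-fold (log2 1.07 ± 0.21, SE, limma, adjusted p = 1.71e-05). Its other 2 probe sets gave 1.07 and 0.74, of which the dimmer did not pass (adjusted p = 0.0591). Adgre1, the adhesion receptor known as F4/80, had 79.1 and 33.8 on RA replicates 2 and 1, and 121 and 53.0 on vehicle replicates 2 and 1. The gap was 1.12 on the log2 scale in each treatment, and the numbers did not overlap (2.17-fold in limma, adjusted p = 0.000143). Fcgr3, a low-affinity receptor for immunoglobulin G, had 281 and 167 on RA replicates 2 and 1, and 195 and 112 on vehicle replicates 2 and 1. Here too the numbers did not overlap (1.68-fold, log2 0.75 ± 0.20, adjusted p = 0.00343). Itgb2, the common chain of the beta 2 integrins, had 148 and 80.0 on RA replicates 2 and 1, and 50.2 and 29.7 on vehicle replicates 2 and 1. It passed as well (1.69-fold, log2 0.76 ± 0.24, adjusted p = 0.0190), but its numbers overlapped, because RA replicate 1 lay above vehicle replicate 2.

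Of the signalling genes, Tyrobp had 327 and 137 on RA replicates 2 and 1, and 394 and 172 on vehicle replicates 2 and 1. The log2 gap was 1.22 among RA arrays and 1.17 among vehicle arrays (2.30-fold in limma, adjusted p = 6.97e-08). Ptprc, the phosphatase CD45 of nucleated blood cells, had 162 and 104 on RA replicates 2 and 1, and 179 and 85.0 on vehicle replicates 2 and 1. Neither gene's numbers overlapped. For Ptprc the limma difference was 1.76-fold (adjusted p = 0.00234), and its dimmer probe set gave a log2 difference of 0.78 that did not pass (adjusted p = 0.0614).

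Of the lysosomal and secreted products, Lyz2, the lysozyme of macrophages and neutrophils, had 713 and 243 on RA replicates 2 and 1, and 857 and 426 on vehicle replicates 2 and 1. It was 2.41-fold higher on the arrays numbered 2 (log2 1.27 ± 0.19, adjusted p = 2.70e-09), with a log2 gap of 1.53 among RA arrays and 1.001 among vehicle arrays. Lyz1, a near-identical copy, gave 1.04 (adjusted p = 5.18e-06), and the signals of the pair may not be separate. Cd68, a glycoprotein of late endosomes, had 163 and 97.1 on RA replicates 2 and 1, and 166 and 88.1 on vehicle replicates 2 and 1. Its numbers did not overlap (1.74-fold, adjusted p = 0.00330).

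Among the complement genes, the C1qb probe sets had the same direction but differed in whether the numbers overlapped. C1qb, a chain of the first complement component, had 60.1 and 57.4 on RA replicates 2 and 1, and 115 and 63.6 on vehicle replicates 2 and 1. On this brightest probe set vehicle replicate 2 stood above the other 3 arrays and the numbers overlapped, so that the log2 gap between numbers was 0.06 with RA and 0.81 with vehicle (limma 0.44 ± 0.23, adjusted p = 0.236). The next brightest gave 0.19 with RA and 0.86 with vehicle and did not pass either (limma 0.52 ± 0.25, adjusted p = 0.169). Both are of the _x_at type, whose probes may bind other transcripts. The third C1qb probe set, of the gene-specific type but below the filter, gave 0.28 with RA and 1.33 with vehicle. On these other 2 probe sets both arrays numbered 2 lay above both numbered 1. C1qa, the partner chain, was below the filter, with 10.1 and 7.74 on RA replicates 2 and 1, and 14.5 and 8.49 on vehicle replicates 2 and 1, and its numbers did not overlap.

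**Figure D1:**
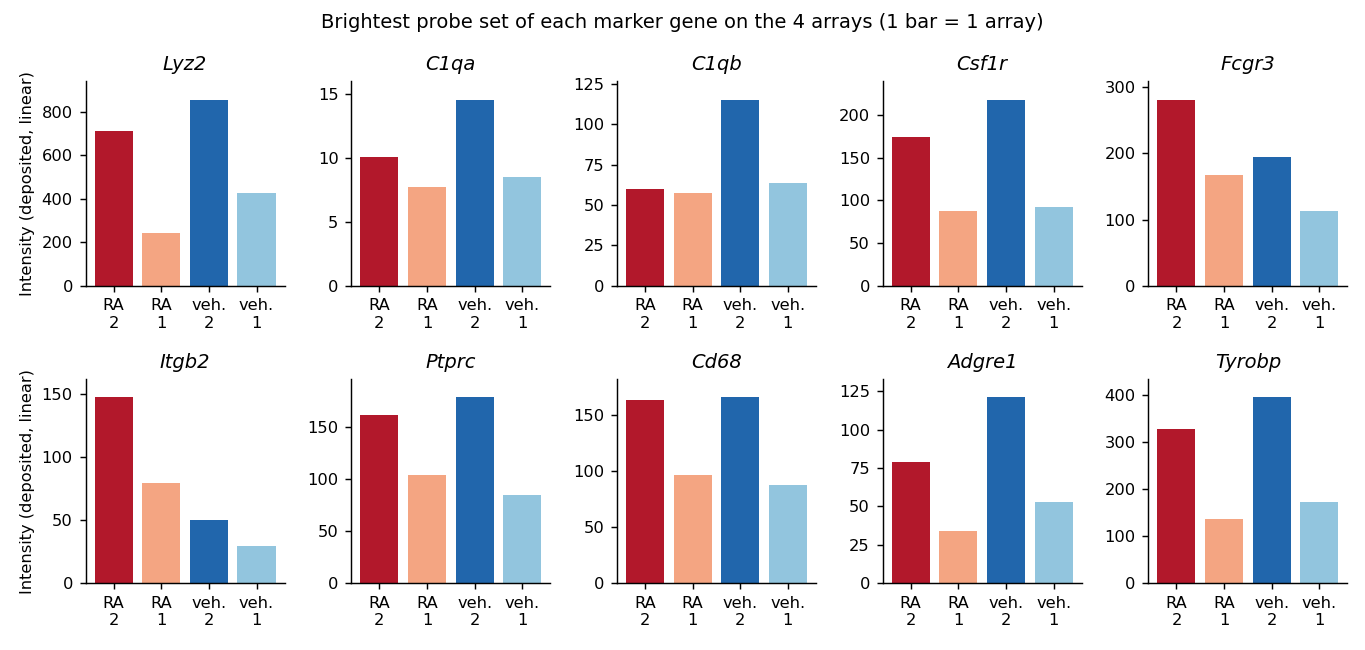
Deposited intensity (linear axis from 0) of the brightest probe set of each of the 10 marker genes, with 1 bar for each array in the order RA replicate 2, RA replicate 1, vehicle replicate 2 and vehicle replicate 1. Within each treatment the bar of replicate 2 is the higher one in every panel, by little for C1qb with RA (60.1 and 57.4), and Itgb2 has both RA bars above both vehicle bars.

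For 7 of the 9 genes above the filter, all but C1qb and Itgb2, both arrays numbered 2 lay above both numbered 1, as they did for 21.5% of all genes, and for 0 of the 9 did they lie below, as for 30.5% of all genes. A difference of at least 1.5-fold in both treatments, a size chosen after the values were seen, was reached by 8 of the 9, against 3.17% of all genes. At least 2-fold was reached by 3 among RA arrays (Lyz2, Adgre1 and Tyrobp; 2.61% of all genes) and by 5 among vehicle arrays (these and Csf1r and Ptprc; 1.62%). The limma calls rested on the term for treatment: without it 163 probe sets passed in place of 3106, and of the marker genes Tyrobp alone kept an adjusted p under 0.05 (0.0357). With the term 1 residual degree of freedom was left, and limma gave the pooled spread full weight (infinite prior degrees of freedom). Probe sets of like intensity thus shared 1 estimate of the spread, and a gene's own spread between arrays did not enter its p-value.

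**Figure D2:**
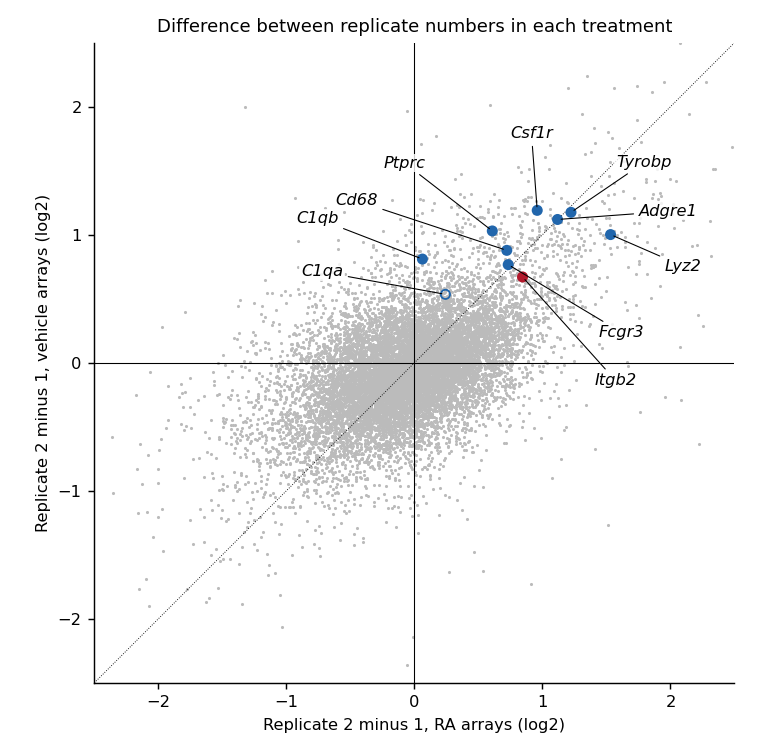
Difference on the log2(intensity + 5) scale between replicate 2 and replicate 1 among RA arrays (horizontal) and among vehicle arrays (vertical) for 13018 genes above the filter (grey, points beyond the axis ends not drawn), with the marker genes in blue, Itgb2 in red and C1qa, below the filter, as an open circle. All 10 marker genes lie above 0 on both axes, C1qb at only 0.06 on the horizontal one.

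Many other leukocyte genes were also higher on the arrays numbered 2. Of all genes above the filter 4.82% were called higher and 6.91% lower. Of 17 general leukocyte genes above the filter 15 were called higher and 0 lower, among them the tetraspanin gene Cd53 at a log2 difference of 1.001, the actin-bundling protein gene Lcp1 at 0.65, Rac2, a GTPase of blood cells, at 1.36 and Evi2a at 1.42. Of 21 further macrophage genes 11 were called higher and 0 lower. Both arrays numbered 2 lay above both numbered 1 for 12 of the 21, and below for 1, Lyve1 at −0.30. Mrc1 and Mertk stood at 0.02 and Irf8 at −0.31, genes chosen here after their values were seen. Clec4n, the receptor dectin-2, had 50.8 and 8.21 on RA replicates 2 and 1, and 194 and 30.3 on vehicle replicates 2 and 1 (log2 2.29, adjusted p = 9.18e-16). Pf4, a chemokine of platelets and some macrophages, stood at 1.61 and the lysosomal protease gene Ctsb at 0.63. Of 15 genes of Fc receptors and activation-motif signalling 8 were called higher and 0 lower, among them Inpp5d, a lipid phosphatase, at 1.14 and the high-affinity receptor Fcgr1 at 1.05. Fcer1g, the gamma chain that FCGR3 needs at the surface, had 608 and 284 on RA replicates 2 and 1, and 764 and 400 on vehicle replicates 2 and 1 (log2 1.01). Sirpa, an inhibitory receptor, stood at 0.13 and did not pass. The macrophage genes Cd163, Cx3cr1, Siglec1, Aif1, Timd4, Folr2, Vsig4 and C1qc were below the filter, as was Trem2.

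Of the other blood cell lists, those of mast cells and neutrophils had most of their genes called higher, and the others had fewer. Mast cell genes were called higher in 7 of 8, with a median of 1.14, and included the carboxypeptidase Cpa3 at 1.62, the chymase Cma1 at 1.29, the tryptase Tpsb2 at 1.62 and the IgE receptor chain Ms4a2 at 1.71. Their summed intensity was 8112 and 2893 on RA replicates 2 and 1, and 8891 and 4525 on vehicle replicates 2 and 1, beside 2118 and 1016 with RA and 2310 and 1130 with vehicle for the marker genes. Neutrophil genes were called higher in 5 of 7, with the calcium-binding protein genes S100a9 at 1.08 and S100a8 at 0.86 and the collagenase Mmp8 at 1.44, while Mpo, Elane, Csf3r and Cxcr2 were below the filter. Lymphocyte genes were called higher in 3 of 7 and lower in 1. Cd3g, a chain of the T cell receptor complex, stood at 1.26 and the cytokine receptor gene Il7r at 1.04, whereas the adhesion receptor gene Cd2 was lower, at −0.72, and Cd4, Cd8a and Ms4a1 were below the filter. Of 6 antigen presentation genes the class II invariant chain Cd74 was called, with 201 and 26.5 on RA replicates 2 and 1, and 184 and 56.2 on vehicle replicates 2 and 1. The class II chain H2-Eb1 at 0.56 and Zbtb46, a factor of dendritic cells, at 0.15 did not pass.

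Genes of the testis's own cells were read against the same shares of all genes, 4.82% called higher and 6.91% lower. Germ cell genes had 0 of 12 called higher and 1 lower, Zbtb16 at −0.53, with a median of −0.16. Sall4, a germ cell transcription factor, stood at 0.43, Dnd1 at −0.60 and Tdrd1 at −0.68, and none of the 3 passed. The summed intensity of the 12 germ cell genes was 9180 and 8967 on RA replicates 2 and 1, and 9890 and 9808 on vehicle replicates 2 and 1. Sertoli cell genes had 2 of 10 called higher, Inha and Aard (0.58), with Clu at 0.54 not passing. Leydig cell genes had 1 of 5, the steroid enzyme gene Cyp11a1 at 0.85, with Star at 0.28 and Nr5a1 at 0.62 not passing, and the list's median gap between numbers was 0.06 among RA arrays and 0.94 among vehicle arrays. Stromal genes had 0 of 10 called higher and 1 lower, the muscle filament gene Des at −1.04, and the collagen gene Col3a1 at 0.38, Col1a1 at 0.50 and the actin gene Acta2 at 0.42 did not pass. Endothelial genes had 0 of 9 higher and 1 lower, the clotting protein gene Vwf, while Tek at −0.55 and Robo4 at −0.10 did not pass. Of the red cell genes only Alas2, an enzyme of heme synthesis, was above the filter, and it stood at −0.63 without passing. The part of other blood cells in the marker genes' difference was not tested.

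**Figure D3:**
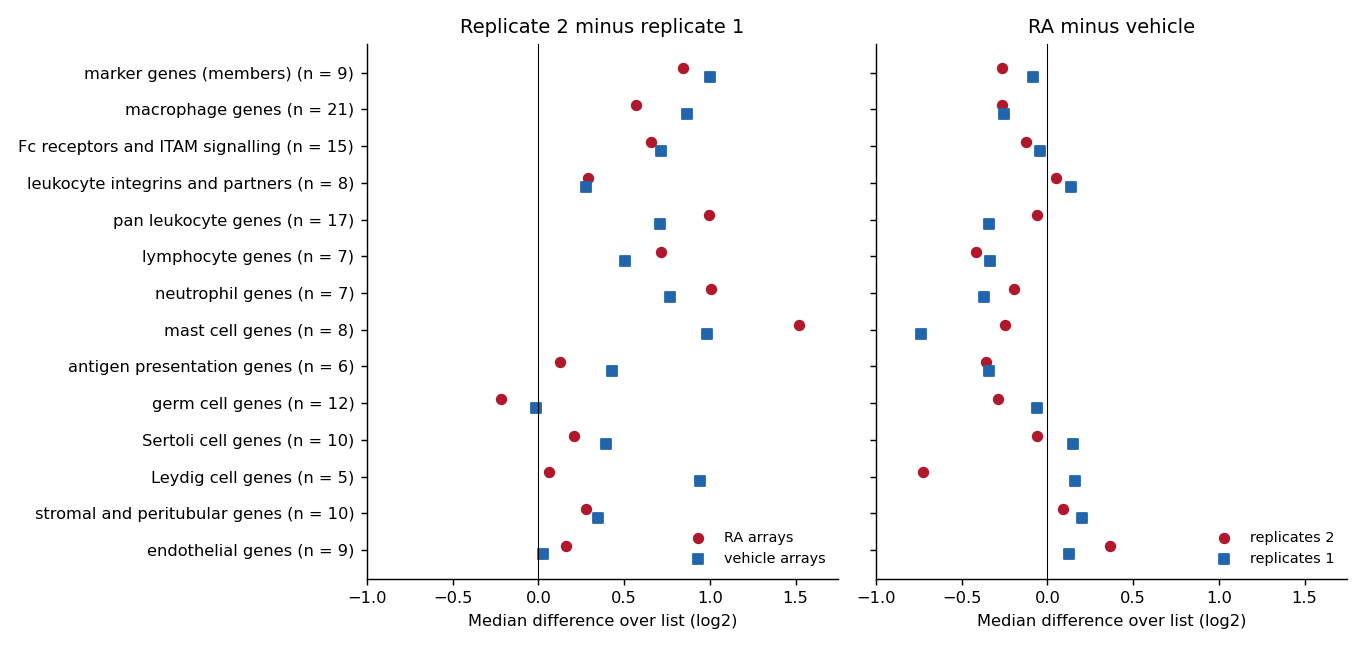
Median difference on the log2(intensity + 5) scale over the genes above the filter of each list (number in brackets), between replicate numbers within each treatment (left) and between RA and vehicle at each number (right), 1 array against 1 for each gene. In the left panel the germ cell list lies lowest of the lists drawn in both treatments, the mast cell genes reach 1.52 among RA arrays and the Leydig cell genes 0.94 among vehicle arrays.

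The 8 genes outside the set whose centred profile over the 4 arrays lay nearest, by Euclidean distance on the log2 scale, to the mean profile of the marker genes above the filter were Gpnmb, Atp2a3, Mmp16, Olfm1, Spock2, Creg1, Mpeg1 and 1700128F08Rik, at distances from 0.0260 to 0.130. None of the 8 is in the gene lists used here. Values follow for Mpeg1 and Gpnmb alone, although Atp2a3, Mmp16, Olfm1, Spock2 and Creg1 lay nearer than Mpeg1 (0.041 to 0.113, against 0.119). Mpeg1, a pore-forming protein of macrophages, had 247 and 124 on RA replicates 2 and 1, and 263 and 121 on vehicle replicates 2 and 1. Gpnmb, a glycoprotein of phagocytes and other cells, had 87.9 and 45.0 on RA replicates 2 and 1, and 90.2 and 43.4 on vehicle replicates 2 and 1. Within the set Cd68 lay nearest to the mean profile, at 0.134, and Itgb2 farthest, at 1.40, with 11166 genes nearer than Itgb2.

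The second comparison set RA against vehicle at each number. Over the 10 genes the median log2 difference was −0.26 at number 2 and −0.08 at number 1, beside 0.03 and 0.0044 over all genes above the filter. In limma without a term for the replicate number, 0 of the 13 probe sets passed an adjusted p of 0.05 in either direction, as did 0% of all 27022. At an unadjusted p under 0.05 there was 1 of 13, that of Itgb2, beside 2.77% of all. With that term, run as an alternative only, 558 of the 27022 passed, and 1 of the 13. For any 1 gene, the smallest p of an exact permutation test (two-sided) is 0.333 with 2 arrays in each group. The median over the 10 genes, −0.21 from the group means, turned to 0.30 without RA replicate 1 and to 0.35 without vehicle replicate 2, and it was −0.45 without RA replicate 2 and −0.64 without vehicle replicate 1.

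The genes other than Itgb2 had differences of both signs. Adgre1 stood at −0.58 at each number, Tyrobp at −0.27 at number 2 and −0.31 at number 1, Lyz2 at −0.26 and −0.79, and Csf1r at −0.31 and −0.08. Ptprc and Cd68 had −0.14 and −0.02 at number 2 but 0.28 and 0.13 at number 1. For each of these 6 the treatments overlapped. Lyz2 passed when RA replicate 2 was left out (log2 −1.29, adjusted p = 0.0248), and stood at 0.24 without RA replicate 1. Each of these fits has 1 RA array, so its residual spread comes from the 2 vehicle arrays alone and the lone array is assumed to vary like them. Both RA arrays of C1qb lay below both vehicle arrays, as in 12.6% of all genes, by −0.89 at number 2 and −0.14 at number 1, while its second probe set overlapped, with −0.57 and 0.11. Fcgr3 had differences of like size at the numbers, 0.52 and 0.55, or raw ratios of 1.44 and 1.49. Its treatments overlapped, since RA replicate 1, at 167, lay below vehicle replicate 2, at 195 (limma log2 0.54 ± 0.34, adjusted p = 0.999996).

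Itgb2 stood apart from the other 9 genes in this comparison. Its 148 and 80.0 on RA replicates 2 and 1 both lay above the 50.2 and 29.7 on vehicle replicates 2 and 1, and of the 9 genes above the filter it alone was higher on both RA arrays, as 14.2% of all genes were. The raw ratio of RA to vehicle was 2.94 at number 2 and 2.69 at number 1, or 1.47 and 1.29 on the log2 scale. At least 2-fold higher values at both numbers were found for Itgb2 alone of the marker genes and for 0.315% of all genes. In limma the difference was 2.60-fold (log2 1.38 ± 0.37, SE, unadjusted p = 0.00653, adjusted p = 0.999996), so it did not pass over all probe sets. It passed without RA replicate 1 (log2 1.80, adjusted p = 0.0278), where RA replicate 2 stands alone against both vehicle arrays and the residual spread is theirs, and not without any 1 of the other arrays. These fits carry no term for the replicate number, which the labels do not say pairs the samples. With such a term, run as an alternative only, Itgb2 passed, so its call depended on that choice. Ordered from the most raised with RA downward, Itgb2 ranked 28 of 13018 genes, an order in which genes lowered by more do not count. At both numbers 20 genes, itself included, were at least as high. Itgb2 has 1 probe set, so no other could be set beside it, and it was singled out with its values known.

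The RA difference of Itgb2 exceeded the median of the other 9 genes by 1.73 at number 2 and 1.38 at number 1 on the log2 scale. None of the 9 reached it at either number, and the nearest was Fcgr3. By replicate number Itgb2 lay within the range of the others: its difference was 0.11 from their median among RA arrays and −0.33 from it among vehicle arrays. Of the 9 others 4 and 8 lay above it, and the gene below it among vehicle arrays was C1qa, which is below the filter. The ratio of 3′ to 5′ signal of control transcripts, which rises as RNA or its amplification is less complete, was also higher with RA. For Actb it was 2.32 and 2.08 on RA replicates 2 and 1, and 1.73 and 1.72 on vehicle replicates 2 and 1, and for Gapdh 2.00 and 1.85 with RA and 1.47 and 1.56 with vehicle. Its part in the Itgb2 difference was not tested.

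**Figure D4:**
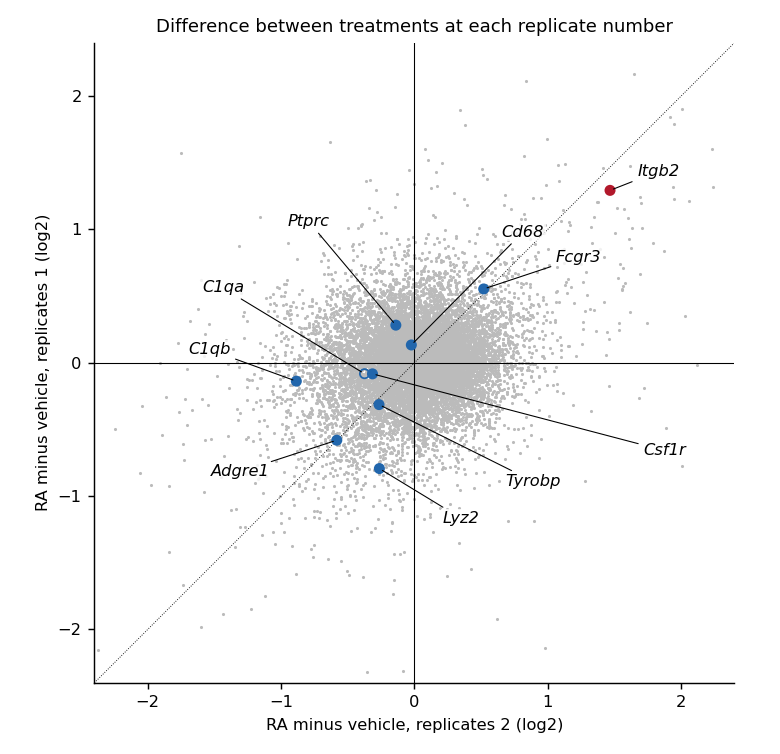
Difference on the log2(intensity + 5) scale between RA and vehicle at number 2 (horizontal) and number 1 (vertical) for 13018 genes above the filter (grey, points beyond the axis ends not drawn), with the marker genes in blue, Itgb2 in red and C1qa as an open circle. Itgb2 lies at 1.47 and 1.29 and Fcgr3 at 0.52 and 0.55, while the other marker genes lie between −0.89 and 0.28.

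Integrins and their partners were read from a further list. Itgal, whose product forms LFA-1 with ITGB2, had 62.1 and 52.6 on RA replicates 2 and 1, and 64.2 and 53.4 on vehicle replicates 2 and 1, log2 differences of −0.05 and −0.02. Itgam and Itgax, the alpha chains of the other main beta 2 integrins of macrophages, were below the filter. Itgb7, a beta chain of lymphocyte integrins, had 198 and 64.5 on RA replicates 2 and 1, and 61.2 and 48.5 on vehicle replicates 2 and 1 (limma log2 0.996 ± 0.47, adjusted p = 0.999996). Its log2 differences were 1.61 at number 2, where that of Itgb2 was 1.47, and 0.38 at number 1, where that of Itgb2 was 1.29. Fermt3, a kindlin that activates integrins in blood cells, stood at −0.03 at number 2 and 0.11 at number 1, the talin gene Tln1 at 0.05 and 0.03, and Icam1, a ligand of LFA-1, at 0.06 and 0.41. Of the 8 genes of this list above the filter 3 were called higher by number, Itga4, Itgb7 and Fermt3, and 0 were called with RA.

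In each of the other lists 0 genes were called with RA. For Fc receptors and signalling the median log2 difference was −0.12 at number 2 and −0.04 at number 1. Fcgr4, an activating receptor for immunoglobulin G chosen here after its values were seen, had 48.4 and 34.5 on RA replicates 2 and 1, and 13.1 and 19.1 on vehicle replicates 2 and 1. The treatments did not overlap, and the difference did not pass (limma log2 1.14 ± 0.33, adjusted p = 0.999996). Fcer1g stood at −0.33 at number 2 and −0.49 at number 1, and Sirpa at −0.62 and −0.46. Macrophage genes had medians of −0.27 at number 2 and −0.25 at number 1, and 2 of 21 were higher and 5 lower on both RA arrays, against 14.2% and 12.6% of all genes. Clec4n stood at −1.84 and −1.42 with overlapping treatments. General leukocyte genes had medians of −0.06 and −0.34, and for 0 of 17 were the treatments apart. Mast cell genes had medians of −0.25 and −0.74, and 0 of 8 were higher and 3 lower on both RA arrays.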

How the data were processed

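The authors' deposited values were intensities, 1 per probe set and array, with equal 2% trimmed means (125). Per the labels' protocols, 75 ng total RNA was amplified (NuGEN Ovation V2) and arrays were quantified with GCOS 1.2; the sources used here do not give how probes were combined and scaled. Of 45037 probe sets without controls, 34945 named 1 gene, 932 several and 9160 none, by GEO's platform annotation. Here log2(intensity + 5) was used, with probe sets kept at a mean at or above the 40th percentile (27022). limma 3.58.1 (R 4.3.3; lmFit, eBayes with trend) was fitted for RA against vehicle and, with treatment as a term, for number 2 against number 1, with two-sided p-values adjusted by Benjamini-Hochberg over all kept probe sets. The scripts were tested on simulated data. A gene was read from its brightest probe set. Genes named from the 14 other lists were the 2 brightest and the 2 with the largest number difference in each. The 8 nearest profiles and Thy1, Ddx4, Dazl and Stra8 were named as well. Others are named as list partners, below the filter or after their values were seen. The members and lists were chosen with earlier results of these data known. Alternatives covered scaling, pseudocount, filter, trend, the replicate block, probe set choice and leaving out arrays.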

Additional observations from a re-analysis of the deposited data

How the results depend on the processing

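By number, 9 probe sets of the marker genes were called under quantile scaling, equal medians, both other pseudocounts, no filter and the 60th percentile filter, and 11 with no trend. Over all probe sets 3106 were called by number (1581 higher, 1525 lower), 3046 with equal medians (1245 higher, 1801 lower), 1521 with the 60th percentile filter, which tests fewer probe sets, and 163 without the treatment term, where 7 marker genes had adjusted p from 0.0569 to 0.443. For RA 0 were called; the replicate block gave 558 (230 higher, 328 lower), Itgb2 among them (adjusted p = 3.04e-06), and leaving out 1 array gave 0 to 169 (169 with RA replicate 2 left out, 102 with RA replicate 1 and 1 with vehicle replicate 1). The numbers are not said to pair samples, so the block is an alternative only, although the 2 number differences were correlated over 27022 probe sets (r = 0.53). Leaving out 1 array moved the members' number median between 0.79 and 0.94 and their RA median between −0.64 and 0.35, and the Itgb2 excess over the others between −0.33 and 0.11 by number and between 1.42 and 1.84 with RA; this excess was 1.31 with a pseudocount of 20, against 1.61. Single RA differences whose sign turned when 1 array was left out ranged from −1.29 to 0.24 for Lyz2, −0.79 to 0.40 for Csf1r, −0.44 to 0.59 for Ptprc, −0.38 to 0.49 for Cd68 and −0.90 to 0.32 for Tyrobp. Lyz2 was called without RA replicate 2 (−1.29, adjusted p = 0.0248). The cause of these changes was not tested. The number fit with 1 array left out has no residual degrees of freedom and was not run. Signal near background limits C1qa and the third C1qb probe set, and on the arrays numbered 1 also the list genes Mmp8 and Clec7a.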
